A study of Mus musculus with 4 samples.

Results

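Cytochrome P450 genes of families 2, 3 and 4 were described in the liver nuclei of mice with and without hepatocyte Nampt. The members were all genes of the deposited count matrix whose symbols begin with Cyp2, Cyp3a or Cyp4 followed by a family letter and a number. Other families such as Cyp27 and Cyp46 and genes marked as pseudogenes were left out, and so were Cyp2e1 and Cyp2f2, which served as zonal controls. This gave 77 of 54464 gene rows, in 18 subfamilies. They were chosen by symbol and not by a measured value, although earlier results of these data were known. In hepatocyte nuclei 3 members, Cyp2b23, Cyp2w1 and Cyp4f37, had 0 unique molecular identifiers (UMIs) after rounding, 51 passed the count filter of the genotype test and 26 did not.

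These enzymes sit in the membrane of the endoplasmic reticulum, carry haem and add oxygen to their substrates with electrons that NADPH passes to them through P450 oxidoreductase (Por) and cytochrome b5. Families 2 and 3 clear drugs, steroids and other foreign or endogenous lipids, whereas family 4 hydroxylates fatty acids and eicosanoids at the end of the chain. In liver many of them are made mainly around the central vein, are induced through the nuclear receptors CAR (Nr1i3), PXR (Nr1i2) and PPARα (Ppara), and in rodents differ between the sexes under the control of growth hormone.

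Single-nucleus RNA-Seq was used to ask which liver cells change their transcripts when hepatocytes lack Nampt, the enzyme that recycles nicotinamide into NAD. Livers came from 3 WT and 3 HNKO mice on a C57BL6/BomTac background. Both groups carried the conditional Nampt allele (Nampt cKO in the labels), and HNKO mice also carried Alb-Cre, which is driven by the albumin promoter. The study describes the knockout as hepatocyte-specific, and whether other liver cells kept the gene was not tested here. Per the study's methods the mice were females of a cohort aged 8 to 12 weeks at its start, fed a purified control diet for 6 weeks. That cohort served a nicotinamide riboside intervention, and the sources used here do not name that treatment for these 6 mice. Nuclei of all mice were pooled, and the mice are told apart by hashtag antibodies and numbered here in the order of the hashtag names.

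The 5193 deposited nuclei held 4410 hepatocyte nuclei by the authors' cluster names, 562 to 847 per mouse with 3524052 to 6634851 UMIs. Nampt itself had 91.7, 108 and 103 CPM (UMI counts scaled to a common library total) in the hepatocytes of WT mice 1, 2 and 3 and 91.7, 147 and 70.9 CPM in HNKO mice 1, 2 and 3. The Nampt count is made per gene and does not resolve the deleted part, so that it does not check the genotype labels. The hepatocyte markers Alb, Apob, Ttr and Hnf4a were present in every mouse, with a summed level of 7899 to 9822 CPM in WT and 3754 to 7617 CPM in HNKO hepatocytes. Markers of other cells were also found in the hepatocyte sums, and HNKO mouse 1 stood apart with 368 CPM of 5 stellate markers against 177 to 241 CPM in the others, and 670.1 CPM of 6 cholangiocyte markers against 291 to 387 CPM. Nuclei grouped by mouse, since 9 of 13 hepatocyte clusters drew over 90% of their nuclei from 1 mouse.

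Most members lie next to related genes. By GENCODE annotation on GRCm38, 76 members had a position, on 9 chromosomes, and Cyp2d13 was not matched. The 15 Cyp2c genes lie on chromosome 19 between 39007019 and 44029208, the 9 Cyp3a genes on chromosome 5 between 137892932 and 146113287, and the 8 Cyp4a genes on chromosome 4 between 115242084 and 115621602. Another 8 genes, the Cyp2j subfamily, lie on the same chromosome between 96027534 and 96664154. The 5 Cyp2b and 4 Cyp2a genes share a stretch of chromosome 7 from 25897620 to 27037375, 8 Cyp2d genes lie on chromosome 15 from 82370527 to 82794294, and 8 of 9 Cyp4f genes on chromosome 17 from 32452723 to 32947402.

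Proximal promoter sequences are shown for 5 members on which the zonal and genotype results turn. Cyp2a4 and Cyp2a5 are near-identical genes of the same cluster with opposite zonal patterns, Cyp3a41a represents a female-biased pericentral pair, and Cyp2c37 and Cyp2c50 are pericentral genes whose estimate was lower in HNKO mice without passing the test. Each line gives the 210 bases from 250 to 41 bases before the RefSeq transcript start (GRCm38.p6), 5′ to 3′ on the strand of the gene, with the HNF4 core motif CAAAGTCC in capitals. The windows are chr7:26306942-26307151 (plus strand), chr7:26835089-26835298 (plus), chr5:145720177-145720386 (minus), chr19:39992174-39992383 (plus) and chr19:40089429-40089638 (plus), in the order of the lines. None overlaps the annotated span of its own gene, and overlap with other genes was not checked.
Cyp2a4: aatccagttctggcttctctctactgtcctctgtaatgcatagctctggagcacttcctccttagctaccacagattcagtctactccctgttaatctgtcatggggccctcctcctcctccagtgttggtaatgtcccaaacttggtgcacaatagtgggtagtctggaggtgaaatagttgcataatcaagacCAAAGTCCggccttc
Cyp2a5: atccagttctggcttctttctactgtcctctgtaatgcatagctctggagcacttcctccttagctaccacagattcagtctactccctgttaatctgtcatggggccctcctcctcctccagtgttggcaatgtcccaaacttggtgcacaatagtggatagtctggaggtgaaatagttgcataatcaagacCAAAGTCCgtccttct
Cyp3a41a: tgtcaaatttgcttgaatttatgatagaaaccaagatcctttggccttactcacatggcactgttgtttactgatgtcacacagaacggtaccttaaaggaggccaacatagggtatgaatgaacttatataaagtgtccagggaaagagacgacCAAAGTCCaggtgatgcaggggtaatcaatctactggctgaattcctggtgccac
Cyp2c37: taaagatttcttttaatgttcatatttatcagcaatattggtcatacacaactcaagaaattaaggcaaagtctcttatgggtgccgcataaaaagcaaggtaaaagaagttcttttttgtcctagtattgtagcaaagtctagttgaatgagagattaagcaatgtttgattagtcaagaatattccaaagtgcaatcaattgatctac
Cyp2c50: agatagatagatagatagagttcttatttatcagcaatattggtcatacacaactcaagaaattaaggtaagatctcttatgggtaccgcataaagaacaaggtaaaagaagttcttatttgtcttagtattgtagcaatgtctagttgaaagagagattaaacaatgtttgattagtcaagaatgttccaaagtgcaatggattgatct

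The Cyp2a4 and Cyp2a5 windows differed at 4 of 209 aligned bases and both held the motif, which began at position -55 and -56 from the start. Cyp3a41a held it at position -95, and its window was identical to that of Cyp3a41b over 210 bases. Cyp2c37 and Cyp2c50 were identical at 86.1% of 208 aligned bases and did not hold these letters.

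Promoter windows were matched for 61 members. CAAAGTCC was searched on both strands and occurred in 13 of the 61 (21.3%), against 1.02% of 27025 mouse promoters of the same length. The 13 were Cyp2a4, Cyp2a5, Cyp2c65, Cyp2c66, Cyp2c67, Cyp2c68, Cyp2c69, Cyp2c70, Cyp3a11, Cyp3a16, Cyp3a41a, Cyp3a41b and Cyp4f18. Paralogs share promoter sequence by descent, so these are not independent cases. The TCF/LEF core CTTTGA was in 11 (18.0%; all promoters 12.4%), and its other strand can overlap CAAAGTCC by letters. The STAT5 motif TTCNNNGAA was in 3 (4.92%; all promoters 6.09%). A match of letters is a description of the window and not a binding site.

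In WT mice 1, 2 and 3 the members together took up 1.84%, 1.83% and 0.939% of all UMIs of hepatocytes, and in HNKO mice 1, 2 and 3 they took up 0.799%, 1.47% and 0.978%. The groups overlapped. Summed by subfamily, Cyp2c had 10013, 7694 and 2868 CPM in WT and 3619, 6454 and 2213 CPM in HNKO mice. Cyp3a had 3639, 4259 and 2295 CPM in WT and 2076, 2861 and 1731 CPM in HNKO mice. Within both subfamilies WT mouse 3 lay close to the HNKO mice and HNKO mouse 2 close to the WT mice. Cyp2b had 3509, 4353 and 2497 CPM in WT and 1350.0, 3077 and 2242 CPM in HNKO mice. CPM values are scaled by TMM and are not divided by gene length, so that they were compared between mice and zones and not between genes.

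Zonation was examined first, because both zones could be compared inside each mouse. Of 44 members tested, 26 were higher in pericentral and 7 in periportal hepatocyte nuclei, and 11 did not pass. The pericentral members included 10 of 12 tested Cyp2c genes, which metabolise drugs and arachidonic acid, 7 of 8 tested Cyp3a genes and 3 of 3 tested Cyp4a genes, the fatty acid hydroxylases controlled by PPARα. The periportal members were Cyp2a4, Cyp2a12, Cyp2b10, Cyp3a13 and the 3 tested Cyp2j genes, Cyp2j5, Cyp2j6 and Cyp2j9, which form epoxides of arachidonic acid. The difference pointed the same way in 6 of 6 mice for 25 of the 26 and 6 of the 7, the exceptions being Cyp2c29 and Cyp2b10, each with 5 of 6.

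Zone was set from 23 genes outside the P450 family, such as Glul and Slc1a2 for the pericentral and Sds and Hal for the periportal side. Within each mouse the third of hepatocyte nuclei with the highest score was called pericentral and the third with the lowest score periportal. Summed UMIs were tested with edgeR's quasi-likelihood test with mouse as a block, and an FDR below 0.05 was called. The shares called, 59.1% pericentral and 15.9% periportal, compare with 11.6% and 8.52% of all 8617 genes tested, and the median log2 fold change was 0.54 for the members and -0.01 for all genes. The log2 fold change was 3.43 for the pericentral control Cyp2e1 and -3.93 for the periportal control Cyp2f2. The classes are ranges of a score and not cell types, with 14.8% to 18.4% of nuclei within 0.1 SD of a boundary. Each mouse has both classes by construction. HNKO mice 1 and 3 had only 4 and 1 nuclei in the authors' Periportal clusters. Clusters HNKO 1 and HNKO 2, with 99.1% and 97.0% of their nuclei from these mice, gave 248 and 243 periportal nuclei. Counts over all mice include these mice. Pericentral nuclei were shallower, with a median of 3226 to 5688 UMIs per nucleus against 4015 to 6300.0 in periportal nuclei, and the part of depth in these results was not tested.

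**Figure D1:**
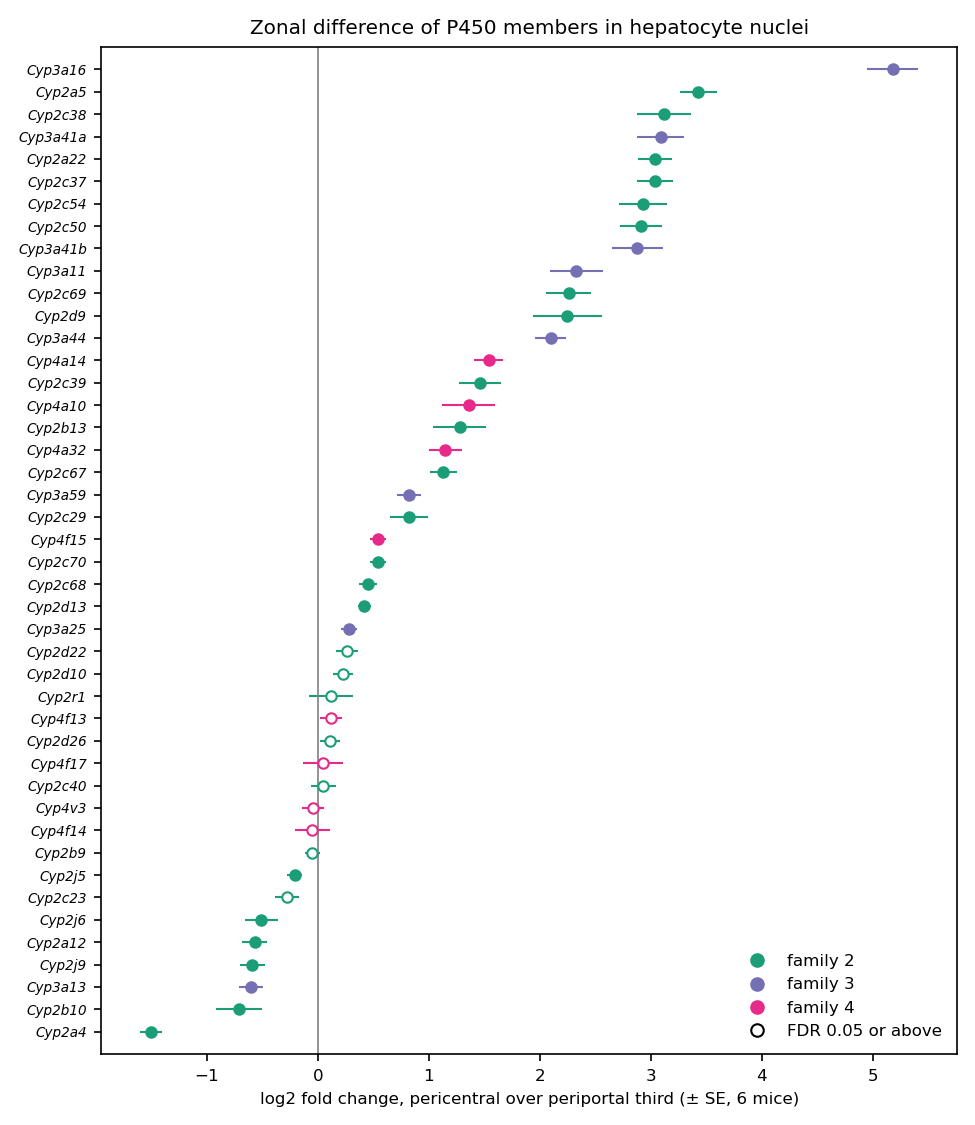
Zonal difference of the 44 tested members. The horizontal axis is the log2 fold change of pericentral over periportal hepatocyte nuclei with its SE (6 mice, mouse as a block), colours mark the family and open symbols an FDR of 0.05 or above. The 26 pericentral members run from 0.28 (Cyp3a25) to 5.18 (Cyp3a16) and the 7 periportal members from -0.21 (Cyp2j5) to -1.50 (Cyp2a4).

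Cyp2a4 and Cyp2a5 lay at opposite ends. Cyp2a5, the coumarin hydroxylase (chromosome 7, 26835305 to 26843548, plus strand), had 99.4, 147 and 164 CPM in pericentral nuclei of WT mice 1, 2 and 3 and 51.5, 113 and 159 CPM in those of HNKO mice 1, 2 and 3. In periportal nuclei of the same mice it had 6.47, 9.26, 13.3, 4.68, 6.10 and 26.1 CPM. No periportal value reached a pericentral value, and the log2 fold change was 3.43 ± 0.17 (SE, edgeR FDR 8.6e-11). Cyp2a4, a testosterone hydroxylase (chromosome 7, 26307169 to 26315088, plus strand), had 32.5, 70.2, 65.2, 17.7, 59.3 and 40.2 CPM in pericentral nuclei of the 6 mice, in the same order. Its periportal levels were 139, 160.2, 164, 49.6, 167 and 118 CPM, higher in every mouse, with a log2 fold change of -1.50 ± 0.10 (edgeR FDR 6.2e-09). Few values of either gene were fractions, since 5.51% of nonzero Cyp2a4 values and 8.99% of Cyp2a5 values were not whole numbers. Whether the whole values were all assigned to the right gene was not tested.

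The authors' own clusters gave the same order at the central end. In the clusters named Central, present in all 6 mice with 39 to 100 nuclei each, Cyp2a5 had 235 ± 100.4 CPM (SD, n = 6) and Cyp2a4 17.3 ± 5.95 CPM. In the clusters named Periportal, which held at least 10 nuclei in 4 mice, Cyp2a5 had 10.9 ± 2.24 CPM (SD, n = 4) and Cyp2a4 158 ± 21.6 CPM. HNKO mice 1 and 3 had 4 and 1 Periportal nuclei and were not used there. These clusters were made from the same genes and are given as levels with no test.

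Cyp3a16, known as a perinatal and female-biased form, had the widest zonal difference of the members, 5.18 ± 0.23 on the log2 scale (edgeR FDR 1.9e-11). Its pericentral levels were 21.4, 302, 21.7, 1.51, 135 and 17.0 CPM in WT mice 1 to 3 and HNKO mice 1 to 3, and its periportal levels were 2.43, 8.55, 0.604, 0, 2.18 and 0.389 CPM. The zonal order held in each mouse while the level itself ranged 143-fold between mice in all hepatocytes. In the Central clusters Cyp3a16 was at 0 CPM in WT mouse 1, where the hepatocyte clusters named neither Central nor Periportal had 19.4 CPM, so that in this mouse its UMIs lay outside the Central clusters. Cyp3a41a had 63.5 CPM in the Central clusters of WT mouse 1 and 473 CPM in these other clusters. It was lower in Central than in these other clusters in every mouse except WT mouse 3 and HNKO mouse 3. In those mice it had 242 against 228 CPM and 138 against 71.8 CPM. Its mean over the mice was 325 CPM in Central and 415 CPM in these other clusters, and that of Cyp3a44 was 78.0 and 248 CPM. Both genes were higher in Central than in Periportal clusters in all 4 mice compared.

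The Cyp2c subfamily held the largest group of pericentral members. Cyp2c38 had 5733, 4049, 1968, 2766, 3163 and 1977 CPM in pericentral and 626, 207, 255, 639, 159.5 and 468 CPM in periportal nuclei, in the same mouse order, which is a log2 fold change of 3.12 ± 0.24. Cyp2c37 followed with 547, 530.1, 225, 179, 272 and 53.5 CPM against 80.1, 59.1, 16.9, 19.6, 23.5 and 16.3 CPM (3.04 ± 0.16). Both were higher in the pericentral nuclei of 6 of 6 mice. Cyp2c54 and Cyp2c50 had similar log2 fold changes of 2.93 ± 0.22 and 2.91 ± 0.19. At the other end of the subfamily Cyp2c68 (0.45 ± 0.08) and Cyp2c70 (0.54 ± 0.07), the enzyme that makes muricholic acids from bile acids in mice, were higher in pericentral nuclei of all 6 mice by a smaller amount. In the authors' clusters Cyp2c68 was higher in Central than in Periportal in 4 of 4 mice, but Cyp2c70 only in 2 of 4. The mean of Cyp2c70 was 1137 CPM in Central (6 mice) and 1219.9 CPM in Periportal (4 mice). Cyp2c40 (0.05 ± 0.11) and Cyp2c23 (-0.28 ± 0.11) did not pass the test. In the authors' clusters Cyp2c40 was lower in Central than in Periportal in 4 of 4 mice.

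Among Cyp3a genes, Cyp3a11, the main PXR-inducible form, had 840.4, 878, 417, 1266, 403 and 164 CPM in pericentral and 119, 64.8, 90.0, 233, 80.2 and 113 CPM in periportal nuclei (2.33 ± 0.24). Cyp3a25 was nearly even, at 0.28 ± 0.07. Cyp3a13 was the member that went the other way, at -0.60 ± 0.11, and it was higher in periportal nuclei of 6 of 6 mice, with 146 to 296 CPM against 95.1 to 235 CPM. The Cyp4a members Cyp4a14, Cyp4a10 and Cyp4a32 had log2 fold changes of 1.54 ± 0.13, 1.36 ± 0.24 and 1.15 ± 0.15. Of 4 tested Cyp4f genes, which inactivate leukotrienes and hydroxylate long-chain lipids, only Cyp4f15 passed (0.54 ± 0.07). Of 5 tested Cyp2d genes, Cyp2d9 (2.25 ± 0.31) and Cyp2d13 (0.42 ± 0.06) passed. Cyp2b13 was pericentral (1.28 ± 0.24), Cyp2b9 did not pass (-0.05 ± 0.07) and Cyp2b10, the classical CAR target, was periportal (-0.71 ± 0.21, edgeR FDR 0.022). In the authors' clusters, given with no test, Cyp2b9 was lower in Central than in Periportal in 4 of 4 mice. In WT mice 1, 2 and 3 and HNKO mouse 2 it had 2000.3, 1939, 1402 and 1869 CPM in Central. In Periportal it had 2260.3, 3529, 1749.6 and 2522 CPM.

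The calls were repeated without single mice and within each genotype. Cyp2a4, Cyp2a12, Cyp3a13 and Cyp2j9 were called whichever mouse was left out, whereas Cyp2j5 (-0.21 ± 0.07), Cyp2j6 (-0.51 ± 0.15) and Cyp2b10 were not. Of the 26 pericentral members 24 were called whichever mouse was left out, and the other two, Cyp3a16 and Cyp2d9, were untested in some of these fits. In WT mice alone 25 of the 26 and 3 of the 7 were called, and in HNKO mice alone 21 of the 26 and 3 of the 7. Without the mouse block 12 pericentral members and 1 periportal member were called.

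Genotype was compared next, over all hepatocyte nuclei of each mouse. No member passed the test. Of 51 tested members 45 had a lower estimate in HNKO than in WT hepatocytes (88.2%, against 47.6% of all genes tested). The members were measured in the same 6 mice and are not independent of each other, so that counts of lower members here and below are not a test. The median log2 fold change was -0.58 for the members and 0.02 for all genes. Estimates below -1 with an unadjusted p under 0.05 were found for the fatty acid hydroxylases Cyp4a10 and Cyp4a14, for Cyp2a22 and Cyp2d34 and for the pericentral Cyp2c37, Cyp2c50 and Cyp2c54. The 6 positive estimates were Cyp2a12, Cyp2d40, Cyp2r1, Cyp2u1, Cyp3a11 and Cyp4f17. A sum over nuclei does not separate fewer nuclei with a transcript from fewer transcripts per nucleus.

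The test was edgeR's quasi-likelihood test of genotype on 3 WT against 3 HNKO mice. It called 0 of 51 members and 0% of all 11810 genes at an FDR below 0.05 (smallest member FDR 0.82), and DESeq2 also called 0 members. Some fits called other genes, 24 in DESeq2, 35 without a count filter and 32 without HNKO mouse 2, and in each of these 0 members were called. At an unadjusted p under 0.05 there were 9 members, all lower in HNKO, where 2.05% of all genes were past that p and lower. WT and HNKO mice did not overlap in 7 tested members, all lower in HNKO, against 5.24% of all genes. The 9 members depended on single mice. Their number was 2 without WT mouse 1, 3 without WT mouse 2 and 21 without HNKO mouse 2, and in none of these fits was a member called. The log2 fold changes of the 9 stayed negative in every fit, but their size moved with the mouse left out, from -2.19 to -0.74 for Cyp2c54, -1.74 to -0.60 for Cyp2c50, -2.58 to -1.36 for Cyp4a14, -2.48 to -1.19 for Cyp4a10 and -2.03 to -1.0 for Cyp2a22. Cyp2c37 moved from -2.04 to -1.10, Cyp2d34 from -1.44 to -0.74, Cyp2d26 from -0.62 to -0.34 and Cyp3a13 from -0.87 to -0.56. Of the 51 members 40 kept their direction in every alternative that tested them and 11 did not, and the negative ones numbered 40 of 52 tested without WT mouse 1 and 41 of 50 without HNKO mouse 1.

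**Figure D2:**
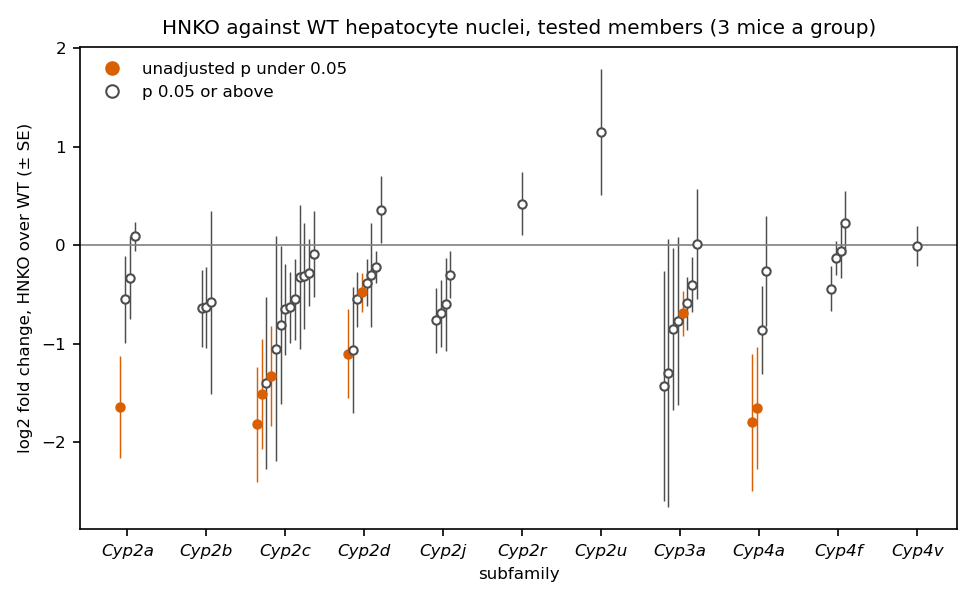
Genotype difference of the 51 tested members in hepatocyte nuclei, by subfamily. The vertical axis is the log2 fold change of HNKO over WT with its SE (3 mice a group) and filled symbols mark an unadjusted p under 0.05. Of the 51 points 45 lie below 0, and all 9 filled points do.

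Cyp2c54 (chromosome 19, 40037940 to 40073827, minus strand) had 258, 65.6 and 52.8 CPM in WT mice 1, 2 and 3 and 40.1, 38.9 and 27.4 CPM in HNKO mice 1, 2 and 3. The groups did not overlap, with 1 WT mouse far above the others, and the log2 fold change was -1.82 ± 0.58 (edgeR unadjusted p 0.014). Cyp2c37 (chromosome 19, 39992424 to 40012243, plus strand) had 267, 258 and 100.1 CPM in WT and 75.8, 118 and 25.8 CPM in HNKO mice (-1.51 ± 0.56, unadjusted p 0.027). Cyp2c50 had 161, 74.3 and 32.7 CPM in WT and 37.6, 43.2 and 25.3 CPM in HNKO mice (-1.33 ± 0.51, unadjusted p 0.032). In Cyp2c37 and Cyp2c50 WT mouse 3 lay among the HNKO mice.

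Cyp4a14 (chromosome 4, 115486200 to 115496142, minus strand) had 168, 127 and 34.2 CPM in WT and 26.1, 57.5 and 10.4 CPM in HNKO mice (-1.80 ± 0.70, unadjusted p 0.032). Cyp4a10 (chromosome 4, 115518264 to 115533649, plus strand) had 37.7, 53.9 and 13.1 CPM in WT and 5.75, 20.8 and 6.67 CPM in HNKO mice (-1.65 ± 0.62, unadjusted p 0.028). HNKO mouse 2 was above WT mouse 3 in both. Cyp2a22, which overlaps the pseudogene Cyp2a21-ps on the opposite strand, had 36.2, 171 and 91.5 CPM in WT and 26.5, 45.6 and 24.0 CPM in HNKO mice (-1.64 ± 0.52, unadjusted p 0.014).

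Smaller differences with less spread were seen in 2 members that were not called pericentral. Cyp3a13 (chromosome 5, 137892932 to 137921619, minus strand) had 256, 272 and 175 CPM in WT and 168, 148 and 118 CPM in HNKO mice, with no overlap (-0.69 ± 0.23, unadjusted p 0.017). Cyp2d26 (chromosome 15, 82790101 to 82794294, minus strand) had 211, 182 and 165 CPM in WT and 106, 157 and 136 CPM in HNKO mice, also with no overlap (-0.48 ± 0.20, unadjusted p 0.045). Cyp3a13 shares its strand with the overlapping gene Gm15502, whose reads cannot be told apart from it here. Cyp2d34 rested on 64 UMIs over all mice and had 2.76, 4.18 and 2.63 CPM in WT and 1.64, 2.15 and 0.710 CPM in HNKO mice (-1.10 ± 0.45, unadjusted p 0.042).

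**Figure D3:**
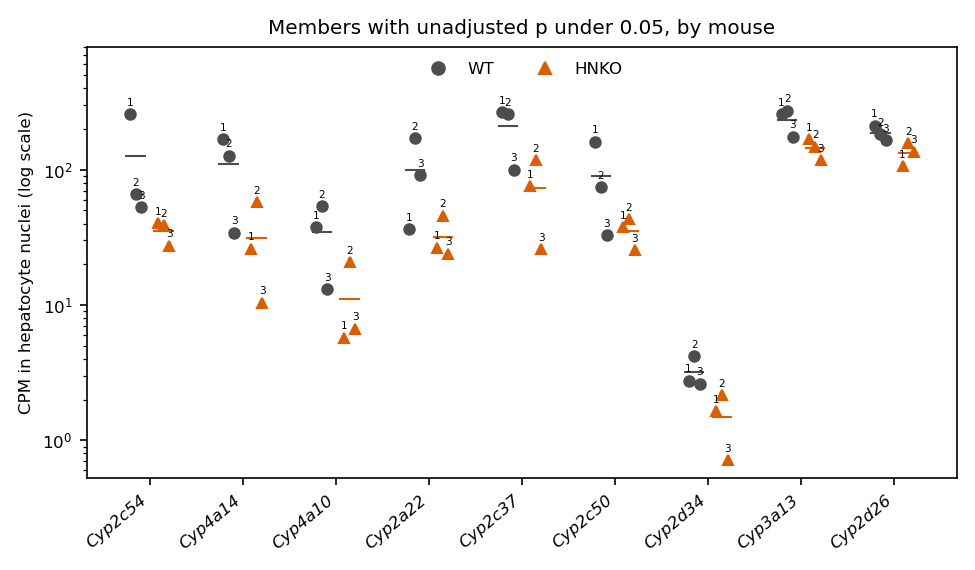
The 9 members with an unadjusted p under 0.05 by genotype, in each mouse. The vertical axis is CPM in hepatocyte nuclei on a log scale, numbers are the mouse numbers and bars the group means. WT and HNKO points do not overlap in Cyp2c54, Cyp2d26, Cyp2d34 and Cyp3a13, and do in the other 5.

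Near-identical paralogs can exchange reads, so the members were also summed by subfamily, which does not depend on how reads were split between members. Pseudogene rows, such as Cyp2d36-ps with 10274 hepatocyte UMIs, were outside the sums. A split of reads with them could still move a sum and was not tested. Of 11 subfamilies tested 9 had a negative log2 fold change. None was called, and of all 11770 rows 0% were. DESeq2 called 24 rows and none of the subfamilies. Of the subfamilies 1, Cyp4a, had an unadjusted p under 0.05, whereas 2.02% of all rows were past that p and lower. Cyp4a had 306, 225 and 83.1 CPM in WT and 61.4, 130.3 and 40.2 CPM in HNKO mice (-1.40 ± 0.54, unadjusted p 0.033). No subfamily had such a p without WT mouse 1, WT mouse 2 or HNKO mouse 3, and 3 had one without HNKO mouse 2. DESeq2 gave 2 and the fit without a count filter 4. The sums of Cyp2c (-0.74 ± 0.56), Cyp2j (-0.72 ± 0.32), Cyp2b (-0.63 ± 0.39), Cyp3a (-0.61 ± 0.35), Cyp2a (-0.54 ± 0.30), Cyp2d (-0.49 ± 0.25) and Cyp4f (-0.30 ± 0.19) did not pass either. Within Cyp2d, Cyp2d13 had 666, 566 and 563 CPM in WT and 369.9, 570.1 and 288 CPM in HNKO mice (-0.55 ± 0.28), and Cyp2d10 143, 77.7 and 99.6 CPM in WT and 91.4, 80.9 and 73.7 CPM in HNKO mice (-0.38 ± 0.24). Within Cyp4f, Cyp4f15 did not overlap, with 264, 303 and 295 CPM in WT and 262, 220.4 and 154 CPM in HNKO mice (-0.44 ± 0.23), whereas Cyp4f13 did, with 78.7 to 100.0 CPM in WT and 73.8 to 87.9 CPM in HNKO mice (-0.13 ± 0.17). Cyp4v3, the only member of its subfamily, had 82.5, 55.4 and 59.0 CPM in WT and 69.2, 57.2 and 68.7 CPM in HNKO mice (-0.01 ± 0.20).

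Further members did not pass the test either, and not all of them were lower in HNKO mice. Cyp3a25 had 2241, 1701 and 1468 CPM in WT and 1033, 1323 and 1235 CPM in HNKO mice, with no overlap (-0.59 ± 0.27). Cyp2j5, an arachidonic acid epoxygenase, had 476, 432 and 368 CPM in WT and 238, 369 and 145 CPM in HNKO mice (-0.76 ± 0.33), where HNKO mouse 2 reached WT mouse 3. Cyp2c70 had 1781, 1644 and 675 CPM in WT and 996, 2089 and 199 CPM in HNKO mice (-0.32 ± 0.73). It was both highest and lowest in an HNKO mouse. Cyp2a12, a steroid hydroxylase, was even across the mice, with 78.5 to 85.0 CPM in WT and 79.2 to 92.6 CPM in HNKO mice (0.09 ± 0.15). Cyp4f17 had 27.9, 22.8 and 11.2 CPM in WT and 23.3, 20.7 and 28.0 CPM in HNKO mice (0.23 ± 0.32).

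Low members were described by their values. Cyp2r1, a vitamin D hydroxylase, had 7.36, 9.94 and 7.41 CPM in WT and 9.04, 8.10 and 15.8 CPM in HNKO mice (0.42 ± 0.32). Cyp2u1, a fatty acid hydroxylase, had 2.45, 1.05 and 2.39 CPM in WT and 1.64, 3.14 and 8.09 CPM in HNKO mice (1.15 ± 0.64). Both were highest in HNKO mouse 3, and neither passed the test. Cyp2g1 did not pass the count filter, with 0.920, 2.88 and 1.19 CPM in WT and 0.493, 0.661 and 0.568 CPM in HNKO mice. Cyp2ab1, Cyp2s1, Cyp2t4, Cyp4b1 and Cyp4x1 held 2, 6, 11, 12 and 4 hepatocyte UMIs. All 26 members outside the test held 0 to 79 hepatocyte UMIs.

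The zonal difference of the members was not shown to depend on genotype. In HNKO mice 1 and 3 the periportal class came almost wholly from outside the authors' Periportal clusters. Those clusters held 4 and 1 of their nuclei. The part of this in the comparison of zones between genotypes was not tested. None of 45 members tested was called for the interaction of zone and genotype in edgeR, where 0.0104% of 9622 genes (1 gene, Gna14) was called, and DESeq2 called 0 members. An unadjusted p under 0.05 was reached by 4 members (8.89%, against 5.67% of all genes). Cyp2c69 had the smallest p. Its levels were 516, 389.7 and 32.2 CPM in pericentral against 215, 79.8 and 7.25 CPM in periportal nuclei of WT mice, and 61.6, 546 and 34.1 against 7.48, 57.1 and 9.34 CPM in HNKO mice. The zonal log2 fold change was larger in HNKO by 1.19 ± 0.30 (FDR 0.61). Cyp3a11 had the opposite sign, -1.09 ± 0.38 (FDR 0.75). Cyp2c39, which hydroxylates retinoic acid, came next (-0.75 ± 0.34, FDR 0.85). Without a count filter 4 members were called, Cyp2c29 (-0.57), Cyp2c38 (-0.67), Cyp2c69 (1.19) and Cyp3a11 (-1.07), in a fit that called 30 genes in all, and without HNKO mouse 2 there were 3, Cyp2c38 (-1.36), Cyp2c54 (-1.51) and Cyp3a41a (-1.47), of 17 genes.

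Spread between mice was wide in this gene group and did not follow genotype alone. The median ratio of the highest to the lowest mouse was 3.51 over the 51 tested members and 1.90 over all genes tested. WT mice 1 and 2 and HNKO mouse 2 were the 3 highest mice in 21 members (41.2%, against 6.38% of all genes), among them Cyp2c29, Cyp2c40, Cyp2c69, Cyp3a16, Cyp3a41a, Cyp3a44, Cyp4a10 and Cyp4a14. Cyp2c29, for example, had 2280.3, 2591 and 488 CPM in WT and 331, 1534 and 166 CPM in HNKO mice. HNKO mouse 3 was the lowest mouse in 25 members (49.0%, against 26.9% of all genes). By genotype, the highest mouse was a WT mouse in 41 members (80.4%, against 42.1% of all genes). The lowest was an HNKO mouse in 38 members (74.5%, against 54.1% of all genes). The hepatocyte marker sum was also lowest in HNKO mouse 3, and its part in these values was not tested.

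P450s known to differ between the sexes were listed, as 11 female-biased genes and 6 male-biased ones. All mice of the cohort were female per the methods. The female-biased genes Cyp2b9 and Cyp2b13 were present in every mouse, at 1009 to 3339 and 302 to 1067 CPM, and the male-biased Cyp4a12a and Cyp4a12b stayed at or below 1.32 CPM. The other 4 male-biased genes were not all low, with 120.2 to 234 CPM for Cyp7b1, 199 to 2089 CPM for Cyp2c70, 2.81 to 29.1 CPM for Cyp2d9 and 1.05 to 8.09 CPM for Cyp2u1. All 11 female-biased genes had a negative log2 fold change by genotype, with a median of -0.85. Of all tested members 88.2% were negative, with a median of -0.58, and of all genes 47.6%. None was called, and Cyp4a10 and Cyp4a14 had an unadjusted p under 0.05. Of the 4 male-biased genes tested 3 were negative, with a median of -0.25 and no such p. By zone 8 of the 11 female-biased genes were called pericentral and 2, Cyp2a4 and Cyp2b10, periportal. The shares were 59.1% and 15.9% of all tested members and 11.6% and 8.52% of all genes, so these counts are not read as particular to female-biased genes.

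Several female-biased genes ranged over more than 10-fold among mice of the same genotype. Cyp3a44 had 144, 522 and 58.5 CPM in WT and 24.5, 235 and 8.95 CPM in HNKO mice, a range of 58.3-fold over all 6 mice. Cyp3a16 had 11.7, 141 and 9.08 CPM in WT and 0.986, 58.9 and 6.25 CPM in HNKO mice. Cyp2c69 had 343, 234 and 17.7 CPM in WT and 27.0, 241 and 18.5 CPM in HNKO mice. The high mice in each genotype were WT mouse 2 or 1 and HNKO mouse 2. Cyp3a41a had 287, 592 and 151 CPM in WT and 65.1, 447 and 60.1 CPM in HNKO mice. Cyp3a41b ran alongside it at 47.4 to 496 CPM, but 68.4% and 69.4% of the nonzero values of these 2 genes were fractions, so that reads were split between them and their separate levels are uncertain. The same holds to a lesser degree for Cyp2b13 (38.7%), Cyp2c40 (36.3%), Cyp2c69 (31.7%) and Cyp2b9 (30.5%).

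Of the 8 genes listed for growth hormone and sex control, none had an unadjusted p under 0.05 by genotype. Cux2, a female-biased repressor of male-biased genes, had 906, 766 and 122 CPM in WT and 51.0, 758 and 361 CPM in HNKO mice. It was high in the same 3 mice as the genes above. Onecut1 was also highest in them, with 79.8, 102 and 35.6 CPM in WT and 26.0, 214 and 34.6 CPM in HNKO mice. The growth hormone receptor Ghr varied little, with 9155, 8752 and 7869.9 CPM in WT and 9266, 7952 and 6698 CPM in HNKO mice.

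**Figure D4:**
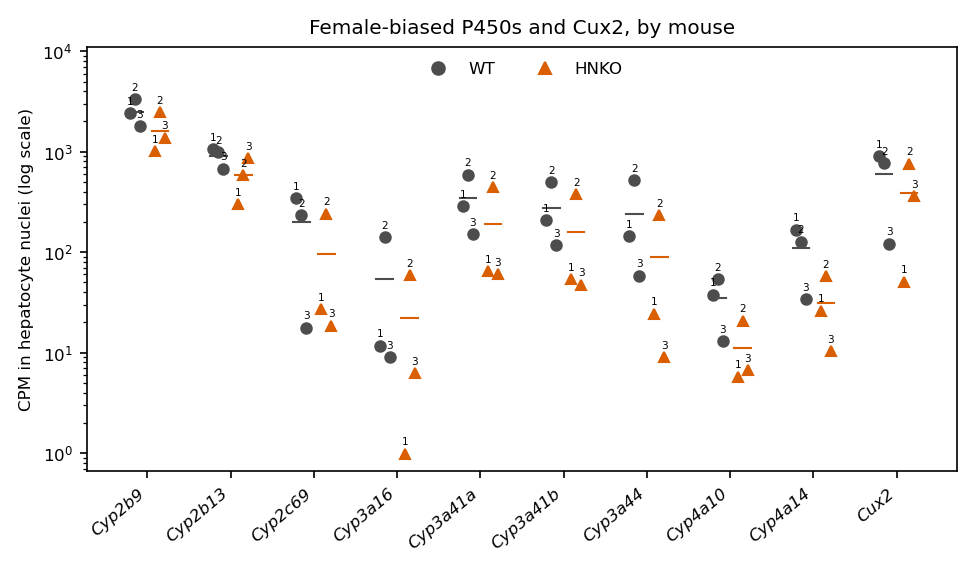
Levels of 9 of the 11 listed female-biased P450s and Cux2 in hepatocyte nuclei of each mouse. The vertical axis is CPM on a log scale, numbers are the mouse numbers and bars the group means. Of the other two, Cyp2a4 had 102, 129 and 124 CPM in WT and 31.2, 131 and 80.8 CPM in HNKO mice, and Cyp2b10, like Cyp2a4, was not lowest in WT mouse 3. In the 10 plotted genes WT mouse 3 sits below WT mice 1 and 2, and HNKO mouse 2 is the highest HNKO mouse in 9, the exception being Cyp2b13 with 588 CPM against 859 CPM in HNKO mouse 3.

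The partners of the P450 enzymes were taken from lists of the pathway. Of 9 electron donor and haem genes none was called by genotype, 5 estimates were negative and 4 positive, and 1, cytochrome b5 (Cyb5a), had an unadjusted p under 0.05. Cyb5a had 838, 829 and 851 CPM in WT and 537, 674 and 451 CPM in HNKO mice (-0.60 ± 0.23), with no overlap. Por had 1442, 1785 and 1749 CPM in WT and 1439, 1559 and 294 CPM in HNKO mice. HNKO mouse 3 stood far below the others, and it did so again in Alas1, the first enzyme of haem synthesis, with 59.2 CPM against 455 to 892 CPM. By zone Por, Cyb5a, Cyb5b and Alas1 were called pericentral, like most members, and Cyb5r3 periportal, of 7 tested (11.6% and 8.52% of all genes).

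Of 16 listed receptors and transcription factors none was called by genotype, 9 estimates were negative and 7 positive, and 1, Nr1i3 (CAR), had an unadjusted p under 0.05. Nr1i3 had 159, 255 and 214 CPM in WT and 91.7, 157 and 86.1 CPM in HNKO mice, with no overlap (-0.91 ± 0.29, unadjusted p 0.013). Cyp2b10, induced through CAR, had 20.6, 20.4 and 33.7 CPM in WT and 40.3, 9.09 and 0.852 CPM in HNKO mice and overlapped between the groups. Ppara had 2414, 2674 and 2695 CPM in WT and 2065, 2525 and 1890.4 CPM in HNKO mice (-0.26 ± 0.26), beside the lower estimates of Cyp4a10 and Cyp4a14. Nr1i2 (PXR) had 305, 324 and 437 CPM in WT and 493, 349 and 122 CPM in HNKO mice, and Cyp3a11 401, 382 and 215 CPM in WT and 669, 189 and 144 CPM in HNKO mice. Both genes were highest in HNKO mouse 1 and lowest in HNKO mouse 3. By zone 5 of the 16 were called pericentral (Nr1i3, Rxra, Ahr, Ppara and Nr1h4) and 0 periportal, against 11.6% and 8.52% of all genes.

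Across cell types the members were mainly hepatocyte transcripts. Their summed level was 13101 ± 4665 CPM (SD, n = 6 mice) in hepatocytes, here without TMM scaling. It was 28.6% of that in endothelial, 11.7% in stellate, 9.38% in Kupffer, 40.0% in CD45+ and 7.63% in cholangiocyte nuclei. The Kupffer and cholangiocyte values rest on the 3 HNKO mice and the CD45+ value on 2 WT and 3 HNKO mice, and against the hepatocytes of the same mice these shares were 11.3%, 9.23% and 37.9%. Transcripts for 12 proteins secreted by hepatocytes, such as Alb and Apob, were found in the same nuclei at 24.5% to 57.0%, 10.7% to 42.5%, 9.62% to 48.5%, 35.5% to 98.5% and 9.72% to 63.3% of their hepatocyte level. The members' summed level lay within or just below this range, and within it when the same mice were compared. A level inside the range is not read as expression in these types, and the source of the UMIs was not tested. Of the 44 members with at least 10 CPM in hepatocytes, 5 lay above the upper end in endothelial, 4 in stellate, 3 in Kupffer, 1 in CD45+ and 5 in cholangiocyte nuclei. Cyp2b9, for example, had a UMI in 94.6% of 4410 hepatocyte nuclei and in 34.7% of 245 endothelial nuclei, with median depths of 4484 and 3017 UMIs.

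Above 3 times the upper end of that range, with at least 10 UMIs in a type other than hepatocytes, stood 3 members, Cyp4b1, Cyp4f18 and Cyp4f16. Cyp4b1, a hydroxylase of fatty acids and foreign compounds (chromosome 4, 115624725 to 115647723, minus strand), had 224, 132 and 148 CPM in endothelial nuclei of WT and 70.8, 201 and 135 CPM in those of HNKO mice. Its hepatocyte level was 0.369 ± 0.371 CPM (SD, n = 6), and a UMI was found in 77 of 245 endothelial nuclei (31.4%) against 16 of 4410 hepatocyte nuclei (0.363%). Cyp4f18, a leukotriene hydroxylase of white blood cells, rested on 23.0 UMIs in CD45+ nuclei. It was at 0 and 0 CPM in WT mice 1 and 2 and at 40.2, 29.4 and 42.8 CPM in HNKO mice, while WT mouse 3 had fewer than 10 such nuclei. In CD45+ nuclei of WT mice 1 and 2, 1 UMI is 20.3 and 23.4 CPM, so that 0 CPM there does not show absence. The genotypes were not tested. Cyp4f16 had 16.4 to 39.2 CPM in CD45+ nuclei of 5 mice (14.5 UMIs) and 23.0 to 28.2 CPM in cholangiocytes of the 3 HNKO mice (17.0 UMIs), against 2.52 ± 2.30 CPM (SD, n = 6) in hepatocytes. Cyp2j6 joined them when mice with fewer than 25 nuclei of a type were left out. It held 25.0 UMIs in cholangiocytes, where its level was 24.6 to 47.9 CPM over the 3 HNKO mice with at least 10 nuclei, while hepatocytes had 22.4 ± 3.36 CPM (SD, n = 6). In the cholangiocytes of HNKO mouse 2 both Cyp2j6 and Cyp4f16 had 24.6 CPM, which is 1 UMI. Cyp4f13 was above the range of the secreted proteins but below 3 times it, at 96.0, 246 and 92.9 CPM in the cholangiocytes of HNKO mice 1, 2 and 3, while hepatocytes had 83.9 ± 7.65 CPM. It was found in 42 of 110 cholangiocyte nuclei (38.2%), close to its 37.7% of hepatocyte nuclei.

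**Figure D5:**
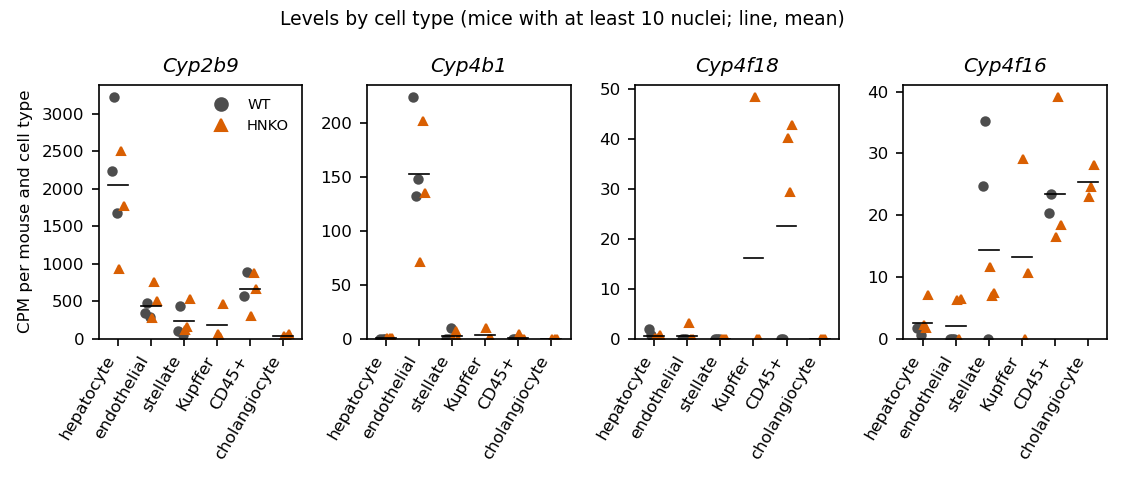
Levels of Cyp2b9, Cyp4b1, Cyp4f18 and Cyp4f16 in each cell type. The vertical axes give CPM per mouse and cell type from 0, points are mice with at least 10 nuclei of the type and bars the means. Cyp2b9 is highest in hepatocytes, whereas Cyp4b1 stands at 70.8 to 224 CPM in endothelial nuclei and below 1 CPM in hepatocytes.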

How the data were processed

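Single-nucleus RNA-Seq of liver from 3 WT and 3 HNKO mice was analysed from the deposited matrices. Per the labels and the methods, the authors used Cell Ranger version 5.0.1 and Alevin on GRCm38 with GENCODE M25, and they deposited estimated counts of UMIs per gene and nucleus, in which reads of similar genes are split. They kept nuclei with 1 hashtag call, which removes doublets of different mice, and named clusters in Seurat. No doublet caller was run here. The deposited SCTransform values are a score corrected to a common depth and were used only as an alternative. Hashtag counts were not used. The barcodes carry no pool, so that barcodes shared between the pools could not be counted.

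Raw UMIs were summed per mouse, cell type or zone and rounded. The quasi-likelihood F test of edgeR version 4.0.16 was run in R (version 4.3.3) after the filterByExpr filter and TMM scaling, two-sided, with a Benjamini-Hochberg FDR threshold of 0.05 over all genes tested. The model held genotype alone, or zone with mouse as a block. DESeq2 version 1.42.0, other scaling and filters, and each mouse left out were alternatives. The zone score per nucleus was the mean scaled log value of 13 pericentral minus 10 periportal genes. The fits were tested on simulated data.

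The members and lists were chosen with earlier results of these data known. Members named are the 3 with the highest mean CPM of each subfamily, those with an unadjusted p under 0.05 by genotype, the 5 with the largest and the 5 with the smallest called zone change, the 3 with the smallest interaction p, those above 3 times the highest percent of a secreted-protein gene in another cell type with at least 10 UMIs, and the listed sex-biased genes. Other members shown beside them were picked after their values were seen. A mouse entered a cell type with at least 10 nuclei. Positions are from GENCODE M21 and promoters from RefSeq GRCm38.p6, both of the build of the files. Values differing from a whole number by more than 0.001 were counted as split. Python version 3.11.15, numpy version 2.4.6, pandas version 2.3.3, scipy version 1.17.1 and matplotlib version 3.10.9 were used.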

Additional observations from a re-analysis of the deposited data

Results flagged for a closer look

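Rows of P450 pseudogenes were outside the comparisons and carried signal. Of 20 such rows of these families 11 held at least 10 hepatocyte UMIs. Cyp2d36-ps had 10274 hepatocyte UMIs, at 469, 305 and 483 CPM in WT mice 1, 2 and 3 and 318, 324 and 236 CPM in HNKO mice 1, 2 and 3, so that the groups overlapped. Cyp2b27-ps had 551 and Cyp2d35-ps 161 hepatocyte UMIs. There are no control samples for these rows, and each count is above the limit that a count of 0 allows. Whether these reads belong to neighbouring or related functional genes was not tested. Groups of 3 mice are too small for a test of single outlying values.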

How the results depend on the processing

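No member and no subfamily was called by genotype under any alternative, and the 9 members past an unadjusted p, the 33 members called by zone and the 3 named for zone by genotype changed no direction. Of the 51 members tested by genotype 11 changed direction in at least 1 fit, namely Cyp2a5, Cyp2c23, Cyp2c67, Cyp2c70, Cyp2d11, Cyp3a11, Cyp3a16, Cyp4a31, Cyp4f14, Cyp4f17 and Cyp4v3, and of 44 by zone 5, none of them called. Zone calls stood at 33 members in all, 26 pericentral and 7 periportal. Without the mouse block they fell to 13, with 12 pericentral and 1 periportal. DESeq2 gave 29, of which 4 were periportal. In WT mice alone and in HNKO mice alone, an alternative chosen after seeing the data, 3 periportal members were called in each. Leaving out each mouse in turn gave 31 to 34 called members. Of single members 49 values by zone were no longer past the threshold and 441 stayed on their side. For zone by genotype, 4 members were called without a count filter, and 0 to 3 when each mouse was left out, the 3 without HNKO mouse 2. The cause was not tested. The members past an unadjusted p by genotype numbered 2 to 21 with 1 mouse left out and 17 without a count filter. Fitting RLE size factors left the number of negative members at 45. Counting RNA pool 1 and pool 2 apart was not run, because neither the barcodes nor the table give the pool. Zones were compared inside each mouse, with mouse as a block. For genotype, no paired analysis was possible because the numbers in the labels belong to pools that each hold all 6 mice, and the mouse numbers come from hashtag names. With 3 mice a group and 3524052 to 6634851 hepatocyte UMIs a mouse, a p above the threshold does not show that a member was equal between the genotypes.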
